A study of Mus musculus with 5 samples.

Results

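Expression of 10 genes that set vessel tone was followed in brain microvessels of normoglycemic and diabetic mice. The genes were given by name, as known regulators of tone, with earlier results of these data known. They are *Nos3*, *Gucy1a3* and *Gucy1b3* of nitric oxide signaling, *Edn1*, *Ece1*, *Ednra* and *Ednrb* of the endothelin system, *Ptgs1* and *Ptgis* of prostanoid synthesis, and *Ace* of the angiotensin system. All 10 were found among 34615 gene symbols, and all 10 were among the 16286 symbols with a mean level of at least 1 FPKM, which were tested.

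The mice were C57BL6 males between 26 and 38 weeks of age, 3 wild type (WT) and 2 heterozygous for Ins2-AKITA, with 1 RNA sequencing library per mouse. Ins2-AKITA is a mutation of the insulin 2 gene, here present in 1 copy. The gene is active in pancreatic beta cells, and the mutation leads to low insulin and hyperglycemia. The WT mice were littermates of the mutants. Microvascular fragments were pulled from the brain with beads against PECAM1, a surface protein of endothelial cells, and pericytes and astrocyte end-feet come along with them. The deposited values hold no allele information, and the genotype therefore rests on the labels.

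Vessel tone in the brain is set by exchange between endothelium and the contractile cells around it. Endothelial cells release nitric oxide and prostacyclin, which relax smooth muscle cells and pericytes, and endothelin-1, which contracts them. Angiotensin-converting enzyme on the endothelial surface makes angiotensin II, another constrictor, and breaks down the dilator bradykinin.

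Levels are given as FPKM, the number of sequenced fragments scaled to transcript length and to library size, so that levels of different genes can be compared per length. The fragments behind the values were estimated at between 1132000 and 2877000 per library, WT replicate 3 being the deepest. All 10 endothelial and all 9 pericyte markers looked at were above 0 in every mouse. The summed level of the endothelial markers was 426 to 746 FPKM in WT and 356 to 441 FPKM in Ins2-AKITA mice, and that of the pericyte markers 223 to 281 FPKM and 198 to 252 FPKM. Markers of other cells were present too. The 7 astrocyte markers summed to 2118 to 2927 FPKM in WT and to 3338 to 3933 FPKM in Ins2-AKITA mice. The 6 smooth muscle markers summed to 222 to 272 FPKM and 145 to 184 FPKM. The sums of neither list overlapped between the genotypes. The sums were 73.1 to 124 FPKM and 98.7 to 111 FPKM for 7 microglia markers, 721 to 806 FPKM and 727 to 859 FPKM for 7 neuronal markers, 1926 to 2613 FPKM and 2096 to 2302 FPKM for 6 oligodendrocyte markers, 28.7 to 33.0 FPKM and 31.3 to 36.2 FPKM for 5 fibroblast markers, 99.0 to 131 FPKM and 104 to 112 FPKM for 6 arterial endothelial markers, and 35.1 to 67.7 FPKM and 25.1 to 32.4 FPKM for 5 erythroid markers. The erythroid sums did not overlap either. By single gene, Ins2-AKITA values lay above the WT range for 4 of 7 astrocyte markers, beside 9.24% of all genes tested. The same held for 2 of the 4 fibroblast markers tested, 1 of 7 neuronal and 1 of 6 oligodendrocyte markers. Values lay below the WT range for 4 of 6 smooth muscle, 3 of 10 endothelial and 2 of 6 arterial endothelial markers, beside 10.3%. They did so too for 1 of 9 pericyte, 1 of 7 microglia, 1 of 7 neuronal and 1 of 5 erythroid markers. In such bulk samples, fewer cells of a type and less RNA per cell cannot be told apart.

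The comparison asked whether chronic hyperglycemia goes along with a different level of vasoregulator transcripts in the brain microvasculature. None of the 10 genes differed between the genotypes beyond the spread between mice. With limma, a linear model that shares variance estimates across genes, on log2(FPKM + 1) and Benjamini-Hochberg adjustment over all genes, 0 of 10 passed an adjusted p of 0.05, and 0 of 10 had an unadjusted p under 0.05. Over all 16286 genes, 0.0246% passed the adjusted threshold (0 higher and 4 lower in Ins2-AKITA mice) and 4.46% had an unadjusted p under 0.05. The estimate was higher in Ins2-AKITA mice for 5 genes and lower for 5. Their median log2 fold change was 0.01, beside -0.04 for all genes tested. The Ins2-AKITA values lay above all WT values for 1 gene, *Gucy1b3*, and below all WT values for 1 gene, *Ptgis*. Over all genes tested the corresponding shares were 9.24% and 10.3%, and 19.5% in either direction, so that 2 of 10 is near the background. With 3 mice against 2 there are 10 splits, and an exact two-sided permutation test cannot give a p below 0.1.

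**Figure D1:**
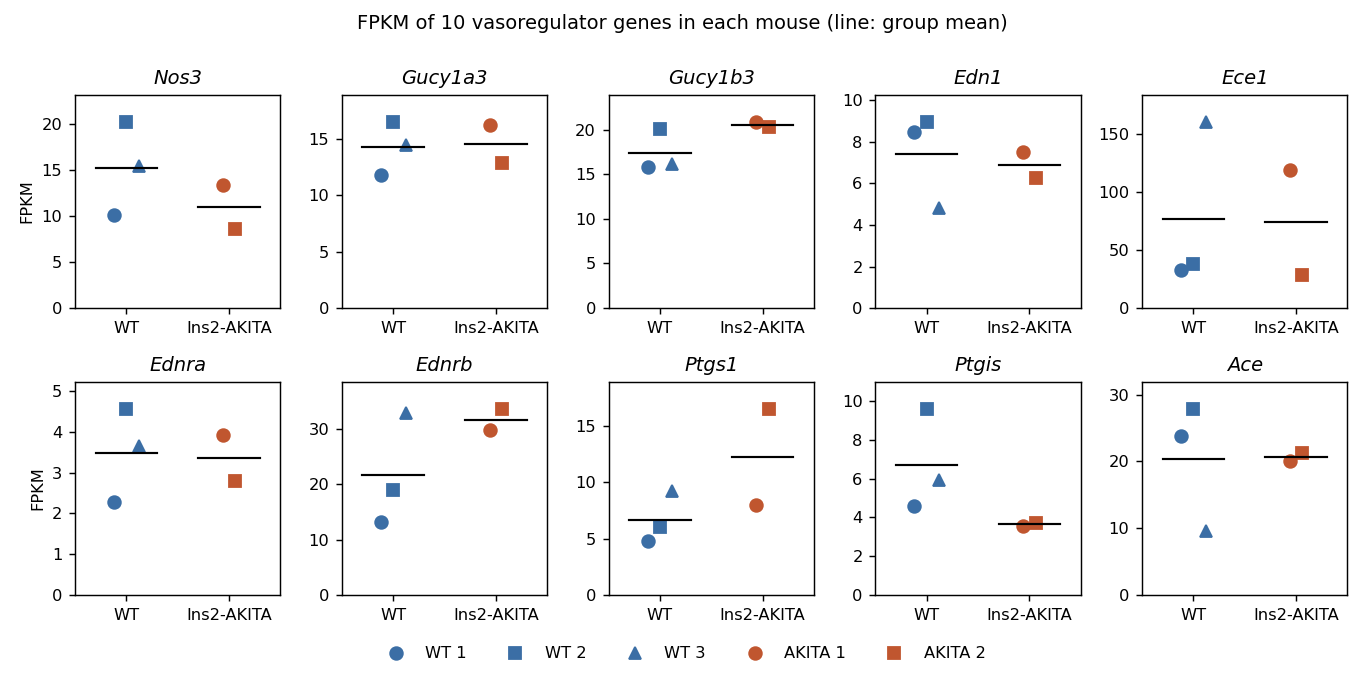
FPKM of each of the 10 genes (vertical axis, linear and starting at 0) in 3 WT mice (blue) and 2 Ins2-AKITA mice (orange), with a symbol for each mouse and a black line at the group mean. The orange points lie above all blue points only for *Gucy1b3* and below all of them only for *Ptgis*, and the *Ece1* points split into high and low within both genotypes.

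*Nos3* encodes endothelial nitric oxide synthase, the enzyme that makes nitric oxide from arginine in the vessel wall (ENSMUSG00000028978, NCBIM37 chromosome 5, plus strand, 23870628 to 23890292). Its level was 10.1, 20.2 and 15.5 FPKM in WT replicates 1 to 3 and 13.4 and 8.56 FPKM in Ins2-AKITA replicates 1 and 2. Mean levels were 15.2 ± 5.05 FPKM (SD, n = 3) and 11.0 ± 3.42 FPKM (SD, n = 2). WT replicate 2 was highest and Ins2-AKITA replicate 2 lowest, but WT replicate 1 lay between the Ins2-AKITA mice, and the genotypes overlapped. The log2 fold change of Ins2-AKITA over WT was -0.42 (standard error 0.35, 95% interval -1.27 to 0.43, adjusted p = 0.902 from limma, exact permutation p = 0.4). Endothelial markers had a lower estimate in Ins2-AKITA mice as well, with a median log2 fold change of -0.44, 9 of 10 genes on that side and none past the adjusted threshold. *Pecam1* had 92.8, 91.0 and 65.8 FPKM in WT and 63.1 and 58.3 FPKM in Ins2-AKITA mice (-0.43, adjusted p = 0.896 from limma), below all WT mice in both. Relative to the mean of the endothelial markers within each library, *Nos3* differed by 0.01 on the log2 scale. With 1 mouse left out this difference ran from -0.19 to 0.20. The part of endothelial content in the *Nos3* values was not tested. The gene shares bases with *Gm15587* and *Atg9b* on the opposite strand, which were listed at 1.31 to 2.78 and 0.699 to 4.87 FPKM. The libraries were stranded, but whether strand was used when the fragments were assigned is not given in the sources used here.

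*Gucy1a3* and *Gucy1b3* encode the alpha 1 and beta 1 subunits of soluble guanylate cyclase, the heterodimer that binds nitric oxide in contractile cells and makes cyclic GMP. The genes are neighbors on the minus strand of chromosome 3 of NCBIM37, *Gucy1a3* (ENSMUSG00000033910) from 81896350 to 81949799 and *Gucy1b3* (ENSMUSG00000028005) from 81835926 to 81878633, with 17716 bases between them. They had the most even levels of the 10 genes, with coefficients of variation over the 5 mice of 14.2% and 13%. RefSeq lists them as Gucy1a1 and Gucy1b1 and holds 2 start sites for the former. The window around the first of these and around the start of Gucy1b1 is printed for this adjacent pair, 5′ to 3′ on the gene's strand, from GRCm38.p6, a different build from that of the expression values. Capitals mark the GC box, GGGCGG, searched on both strands.
Gucy1a1, chr3:82145601-82145900, minus strand: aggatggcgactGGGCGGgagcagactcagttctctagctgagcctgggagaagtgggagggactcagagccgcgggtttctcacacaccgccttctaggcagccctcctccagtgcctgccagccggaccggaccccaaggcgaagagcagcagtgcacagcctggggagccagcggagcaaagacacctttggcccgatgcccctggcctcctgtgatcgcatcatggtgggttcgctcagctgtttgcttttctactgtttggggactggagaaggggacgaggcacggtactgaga
Gucy1b1, chr3:82074662-82074961, minus strand: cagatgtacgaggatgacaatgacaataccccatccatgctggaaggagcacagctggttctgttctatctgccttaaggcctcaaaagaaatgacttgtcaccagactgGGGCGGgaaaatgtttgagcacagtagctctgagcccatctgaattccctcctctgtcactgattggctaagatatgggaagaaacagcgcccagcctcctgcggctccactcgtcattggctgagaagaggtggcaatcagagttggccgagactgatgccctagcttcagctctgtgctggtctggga
Each window shown held 1 GC box and the window of the other Gucy1a1 start 0, for a motif found in 35.7% of the 32851 RefSeq promoter windows of the same length. CCAAT, searched on both strands, occurred 0 times in either Gucy1a1 window and 2 times in that of Gucy1b1, and 37.4% of all windows hold it. TATAAA occurred in none of them, and 13.6% of all windows hold it. These are matches of letters and not measured binding sites.

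The mean level of the alpha 1 subunit transcript was nearly equal in the genotypes, at 14.2 ± 2.32 FPKM (SD, n = 3) in WT and 14.5 ± 2.41 FPKM (SD, n = 2) in Ins2-AKITA mice. *Gucy1a3* was at 11.8, 16.4 and 14.4 FPKM in WT and at 16.2 and 12.8 FPKM in Ins2-AKITA mice, so that both Ins2-AKITA mice lay within the WT range. Its log2 fold change was 0.03 (standard error 0.25, 95% interval -0.57 to 0.63, adjusted p = 0.988 from limma, exact permutation p = 1). *Gucy1b3* was at 15.9, 20.0 and 16.1 FPKM in WT and at 20.8 and 20.3 FPKM in Ins2-AKITA mice. Both Ins2-AKITA mice were above all WT mice, though by less than 1 FPKM over WT replicate 2. The means were 17.3 ± 2.34 FPKM (SD, n = 3) and 20.6 ± 0.357 FPKM (SD, n = 2), 1.19-fold higher in Ins2-AKITA mice. On the log2 scale the difference was 0.24 (standard error 0.21, 95% interval -0.27 to 0.75, adjusted p = 0.902 from limma, exact permutation p = 0.2), which did not pass the test. *Gucy1b3* exceeded *Gucy1a3* in 5 of 5 mice, by 1.12 to 1.58-fold.

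In the endothelin system the ligand, its processing enzyme and the contractile receptor had estimates close to 0, and only the B receptor had an estimate above 0.1 in size. *Edn1* encodes the precursor of endothelin-1 (ENSMUSG00000021367, plus strand of chromosome 13, from 42396639 to 42403358, 1 annotated transcript of 2344 nucleotides). Its level was 8.49, 8.94 and 4.81 FPKM in WT and 7.54 and 6.24 FPKM in Ins2-AKITA mice. WT replicate 3 was the lowest of all 5 mice, and both Ins2-AKITA mice lay between it and the other WT mice. The log2 fold change was -0.06 (standard error 0.34, 95% interval -0.87 to 0.76, adjusted p = 0.984 from limma, exact permutation p = 1). An estimated 17.1 to 29.1 fragments per mouse stood behind these values. The exact Poisson 95% intervals ran from 3.21 to 6.88 FPKM in WT replicate 3 and from 5.22 to 12.9 FPKM in WT replicate 1, and thus overlapped. Such intervals cover counting error only.

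*Ece1* encodes endothelin-converting enzyme 1, the membrane protease that cuts the precursor to active endothelin (ENSMUSG00000057530, plus strand of chromosome 4, from 137418152 to 137521144). It varied more within the genotypes than any of the other 9 genes. Its level was 33.1, 38.0 and 160 FPKM in WT and 119 and 28.6 FPKM in Ins2-AKITA mice. WT replicate 3 and Ins2-AKITA replicate 1 were high, the other 3 mice were low, and the highest value was 4.83 times the lowest in WT and 4.16 times the lowest in Ins2-AKITA mice. The genotype means, 77.0 ± 71.9 FPKM (SD, n = 3) and 73.8 ± 63.9 FPKM (SD, n = 2), were therefore close and poorly determined. The log2 fold change was -0.01 with a 95% interval from -2.03 to 2.02 (standard error 0.84, exact permutation p = 1, adjusted p = 0.999 from limma). Counting error was small beside this spread, as the exact Poisson 95% intervals were 33.4 to 43.3 FPKM in WT replicate 2 and 153 to 167 FPKM in WT replicate 3, taking the length of the longest transcript.

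*Ece1* has 5 annotated transcripts from 172 to 4816 nucleotides, and the shortest is below the fragment length of about 240 nucleotides that the low values of these libraries fitted best. The 87 coding bases of the short transcript lie in a coding exon at chr4:137469683-137469769 (NCBIM37, plus strand). They are shown because the other coding transcripts, 3 of 3, hold the same bases, which alone do not tell these transcripts apart. The start codon of the short transcript is in capitals.
Ece1: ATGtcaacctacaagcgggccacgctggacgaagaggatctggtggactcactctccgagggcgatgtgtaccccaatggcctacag
Protein-coding genes with a mean of at least 5 FPKM, a nonzero value in every mouse and a longest transcript of at least 1000 nucleotides were compared. Of those with a transcript shorter than a fragment, 36 of 231 (15.6%), *Ece1* among them, had a highest WT value over 3 times the lowest. This share was 427 of 7780 (5.49%) for genes with several longer transcripts and 59 of 1769 (3.34%) for genes with 1 transcript. The gene-level values do not show how fragments were divided among transcripts, and the part of the short transcript in the *Ece1* values was not tested.

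The endothelin receptors stood far apart in level. *Ednra* encodes the A receptor, which contracts smooth muscle (ENSMUSG00000031616, minus strand of chromosome 8, from 80186930 to 80248363). It was the lowest of the 10 genes, with 2.27, 4.54 and 3.66 FPKM in WT and 3.91 and 2.79 FPKM in Ins2-AKITA mice. Both Ins2-AKITA mice lay within the WT range, and the log2 fold change was -0.02 (standard error 0.39, 95% interval -0.97 to 0.92, adjusted p = 0.996 from limma, exact permutation p = 1). An estimated 9.1 to 35.6 fragments per mouse limit what could be seen of this gene. *Ednrb* encodes the B receptor, which on endothelium triggers nitric oxide release and clears endothelin and which astrocytes carry as well (ENSMUSG00000022122, minus strand of chromosome 14, from 104213842 to 104243390). Its level was 13.1, 18.9 and 32.9 FPKM in WT and 29.9 and 33.6 FPKM in Ins2-AKITA mice. WT replicates 1 and 2 were below both Ins2-AKITA mice, but WT replicate 3 lay between them. The means were 21.7 ± 10.2 FPKM (SD, n = 3) and 31.7 ± 2.58 FPKM (SD, n = 2), 1.47-fold higher in Ins2-AKITA mice. The log2 fold change was 0.62 (standard error 0.38, 95% interval -0.29 to 1.53, adjusted p = 0.896 from limma, exact permutation p = 0.3). *Ednrb* exceeded *Ednra* in 5 of 5 mice, by 4.17 to 12-fold.

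Astrocyte markers had higher estimates beside *Ednrb*. The estimates of all 7 of 7 astrocyte markers were higher in Ins2-AKITA mice, with a median log2 fold change of 0.52 and none past the adjusted threshold, and the water channel *Aqp4* of astrocyte end-feet had 26.4, 34.2 and 65.4 FPKM in WT and 55.6 and 65.0 FPKM in Ins2-AKITA mice, the same low pair of WT mice. Set against the mean of the astrocyte markers within each library, *Ednrb* differed between the genotypes by 0.07 on the log2 scale (exact permutation p = 0.9), a ratio added after the values had been seen. Within WT alone this log2 ratio ran from -3.5 to -2.71. The part of astrocyte content in the *Ednrb* values was not tested.

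The prostanoid enzymes had estimates of opposite sign, neither past the threshold. *Ptgs1* encodes cyclooxygenase 1, which makes the precursor of all prostanoids and is abundant in microglia (ENSMUSG00000047250, plus strand of chromosome 2, from 36085946 to 36107792). It was at 4.78, 6.04 and 9.21 FPKM in WT and at 7.94 and 16.5 FPKM in Ins2-AKITA mice. Ins2-AKITA replicate 2 was the highest of all mice, while Ins2-AKITA replicate 1 was below WT replicate 3. The means were 6.68 ± 2.29 FPKM (SD, n = 3) and 12.2 ± 6.02 FPKM (SD, n = 2), 1.83-fold higher in Ins2-AKITA mice, and the log2 fold change was 0.74 (standard error 0.40, 95% interval -0.23 to 1.72, adjusted p = 0.896 from limma, exact permutation p = 0.3). Without Ins2-AKITA replicate 2 it was 0.26. The microglia markers summed to 98.7 FPKM in that mouse, less than the 111 FPKM in Ins2-AKITA replicate 1. Relative to them *Ptgs1* differed by 0.68 on the log2 scale (exact permutation p = 0.5), again a ratio added after the values had been seen, and by 0.068 without Ins2-AKITA replicate 2. The astrocyte markers, in contrast, had their highest sum in that mouse, 3933 FPKM beside 3338 FPKM in Ins2-AKITA replicate 1, and their part in the *Ptgs1* values was not tested.

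*Ptgis* encodes prostacyclin synthase, which turns the cyclooxygenase product into the dilator prostacyclin (ENSMUSG00000017969, minus strand of chromosome 2, from 167017305 to 167066104). Its level was 4.59, 9.56 and 5.91 FPKM in WT and 3.57 and 3.72 FPKM in Ins2-AKITA mice. Both Ins2-AKITA mice were below all WT mice, and they lay close together. The means were 6.69 ± 2.57 FPKM (SD, n = 3) and 3.65 ± 0.107 FPKM (SD, n = 2), which is 1.83-fold lower in the latter. The log2 fold change was -0.68 (standard error 0.37, 95% interval -1.56 to 0.21, adjusted p = 0.896 from limma, exact permutation p = 0.2). Between 7.6 and 31.8 fragments per mouse were estimated behind these values, and the exact Poisson 95% intervals of WT replicate 1 (2.17 to 8.32 FPKM) and Ins2-AKITA replicate 2 (1.70 to 7.04 FPKM) overlapped. Smooth muscle markers had lower estimates as well, 5 of 6 of them, a median log2 fold change of -0.60 and *Acta2* at -0.60 (adjusted p = 0.896 from limma). Against the mean of these markers within each library, *Ptgis* differed by -0.27 on the log2 scale (exact permutation p = 0.8), a ratio added after the values had been seen. Without WT replicate 2 this difference was 0.043. The part of smooth muscle content in the *Ptgis* values was not tested. *Ptgis* shares bases with *1110018N20Rik* and *Gm14291* on the opposite strand, listed at up to 3.04 and 1.48 FPKM.

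*Ace* encodes angiotensin-converting enzyme (ENSMUSG00000020681, plus strand of chromosome 11, from 105829259 to 105851278). Its level was 23.8, 27.8 and 9.52 FPKM in WT and 20.0 and 21.3 FPKM in Ins2-AKITA mice. WT replicate 3 stood far below the other mice, and the Ins2-AKITA mice lay between it and the other WT mice. The means, 20.4 ± 9.60 FPKM (SD, n = 3) and 20.7 ± 0.860 FPKM (SD, n = 2), differed by far less than the WT spread, with a log2 fold change of 0.15 (standard error 0.45, 95% interval -0.93 to 1.22, adjusted p = 0.966 from limma, exact permutation p = 1). Without WT replicate 3 it was -0.30. *Ace* shares bases with *Gm11651* on the opposite strand, listed at up to 4.94 FPKM.

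**Figure D2:**
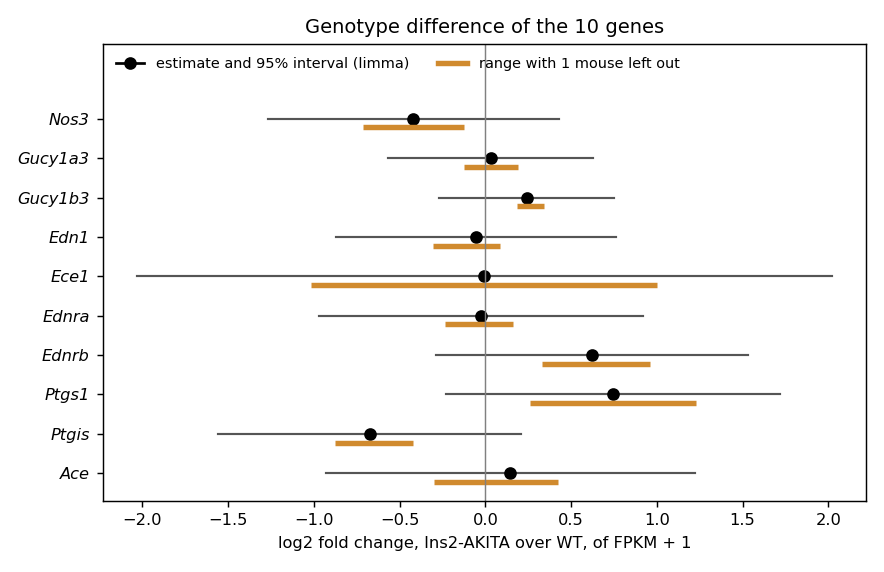
Log2 fold change of FPKM + 1, Ins2-AKITA over WT (horizontal axis), for each of the 10 genes. Black points and lines are the limma estimate and its 95% interval, and orange bars the range of the estimate when 1 of the 5 mice is left out. All 10 black lines cross 0, and the orange bars of *Nos3*, *Gucy1b3*, *Ednrb*, *Ptgs1* and *Ptgis* do not.

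All 10 intervals held 0, and their width bounds what could have gone unseen. That of *Gucy1b3* ended at 0.75 above and -0.27 below, whereas that of *Ece1* reached 2.02 and -2.03. With 1 mouse left out, the sign was kept for *Nos3* (-0.72 to -0.12), *Gucy1b3* (0.18 to 0.34), *Ednrb* (0.33 to 0.96), *Ptgs1* (0.26 to 1.23) and *Ptgis* (-0.88 to -0.42). It was not kept for the other 5 genes. The summed FPKM of the libraries differed widely, from 1530000 to 13030000, and rescaling every mouse to the same sum moved the median of all genes from -0.04 to 1.07. Against that median, *Nos3* stood at -0.38 as deposited and -0.20 after rescaling, *Ptgis* at -0.64 and -0.62, *Ednrb* at 0.66 and 0.82, *Ptgs1* at 0.78 and 0.535, and *Gucy1b3* at 0.28 and 0.49. *Ednra* was the only 1 of the 10 to change side, from 0.01 to -0.40. Without the added 1, a factor per mouse would leave these distances from the median unchanged. The 1 was added after rescaling and weighs most on low genes such as *Ednra*. These moves are therefore no check on the library sum.

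By mean level over the 5 mice the genes ranked *Ece1* (75.7 FPKM), *Ednrb* (25.7 FPKM), *Ace* (20.5 FPKM), *Gucy1b3* (18.6 FPKM), *Gucy1a3* (14.3 FPKM), *Nos3* (13.5 FPKM), *Ptgs1* (8.88 FPKM), *Edn1* (7.2 FPKM), *Ptgis* (5.47 FPKM) and *Ednra* (3.43 FPKM). Only the step from *Gucy1b3* to *Gucy1a3* held in 5 of 5 mice. *Ece1* exceeded *Ednrb*, *Nos3* exceeded *Ptgs1*, and *Ptgis* exceeded *Ednra* in 4 of 5 mice. The other neighbors in this order, *Ednrb* and *Ace*, *Ace* and *Gucy1b3*, *Gucy1a3* and *Nos3*, *Ptgs1* and *Edn1*, and *Edn1* and *Ptgis*, kept it in 3 of 5 mice, so their order is within the spread.

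*Nos3* and *Edn1* were not the most abundant members of their families in these fragments. *Nos1*, the neuronal nitric oxide synthase, exceeded *Nos3* in 5 of 5 mice by 2.2 to 3.69-fold, with 36.3, 44.3 and 42.8 FPKM in WT and 49.4 and 30.7 FPKM in Ins2-AKITA mice. Neuronal markers were present in every library, and the cells that the *Nos1* transcripts came from were not tested. *Nos2*, the inducible synthase, stayed between 0.392 and 0.894 FPKM. *Edn3*, the endothelin-3 gene, exceeded *Edn1* in 5 of 5 mice by 1.08 to 1.53-fold, while *Edn2* was listed at 0 in every mouse. *Gucy1a2*, the other alpha subunit gene, exceeded *Gucy1a3* in 3 of 5 mice, and the ratio ran from 0.823 to 1.64. *Gucy1b2* was listed at 0 in the WT mice and at 0.357 and 0.335 FPKM in the Ins2-AKITA mice. At the estimated depth such values rest on very few fragments, and the gene was below the filter and not tested. *Ece1* and *Ptgs1* were each above their relative in 5 of 5 mice. *Ece1* exceeded *Ece2* by 2.00 to 11.2-fold, and *Ptgs1* exceeded the inducible cyclooxygenase gene *Ptgs2* by 1.84 to 11.8-fold.

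Ratios within a library do not depend on how the library was scaled. For 14 ratios of a gene to a marker or a partner, exact permutation p-values were between 0.1 and 1, and the smallest Benjamini-Hochberg adjusted value over the 14 was 0.6. *Gucy1b3* relative to the pericyte markers gave the smallest unadjusted p, at a log2 ratio of -0.20, 0.26 and 0.32 in WT against 0.49 and 0.895 in Ins2-AKITA mice, a difference of 0.56 (exact permutation p = 0.1, the smallest possible, adjusted 0.6). Both Ins2-AKITA mice were above all WT mice. The same held for *Edn1* relative to *Pecam1*, with -3.45, -3.35 and -3.78 in WT against -3.07 and -3.22 in Ins2-AKITA mice (difference 0.38, exact permutation p = 0.2, adjusted 0.6). It held as well for *Ace* relative to *Pecam1*, with -1.97, -1.71 and -2.79 against -1.66 and -1.46 (difference 0.60, exact permutation p = 0.2, adjusted 0.6). *Pecam1*, the denominator of the *Edn1* and *Ace* ratios, was itself below all WT values in both Ins2-AKITA mice. Of the pericyte markers, the denominator of the *Gucy1b3* ratio, 7 of 9 had a lower estimate in Ins2-AKITA mice. Their median log2 fold change was -0.25, beside 0.24 for *Gucy1b3* itself.

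The groups overlapped in the remaining 11 ratios. Among all single genes tested, 19.5% had groups that did not overlap in either direction, and the share among the 14 ratios is near that. Several of the 14 ratios have *Pecam1* as the denominator, so they are not separate observations. *Nos3* relative to *Pecam1* differed by -0.01, *Ece1* by 0.43, *Ptgs1* by 1.27 and *Ptgis* by -0.37 on the log2 scale (exact permutation p = 1, 0.7, 0.3 and 0.5). Against the pericyte markers, *Ednra* differed by 0.29 and *Gucy1a3* by 0.34 (exact permutation p = 1 and 0.5). *Ednrb* relative to *Ednra* differed by 0.67 and *Nos3* relative to *Gucy1b3* by -0.71 (exact permutation p = 0.3 for both). The subunit ratio of *Gucy1a3* to *Gucy1b3* was the steadiest of the 14, between 0.631 and 0.895 in all mice, with a genotype difference of -0.22 (exact permutation p = 0.3). The ratio of *Edn1* to *Ece1* was the least steady, between 0.030 and 0.256, and differed by -0.05 (exact permutation p = 0.9).

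**Figure D3:**
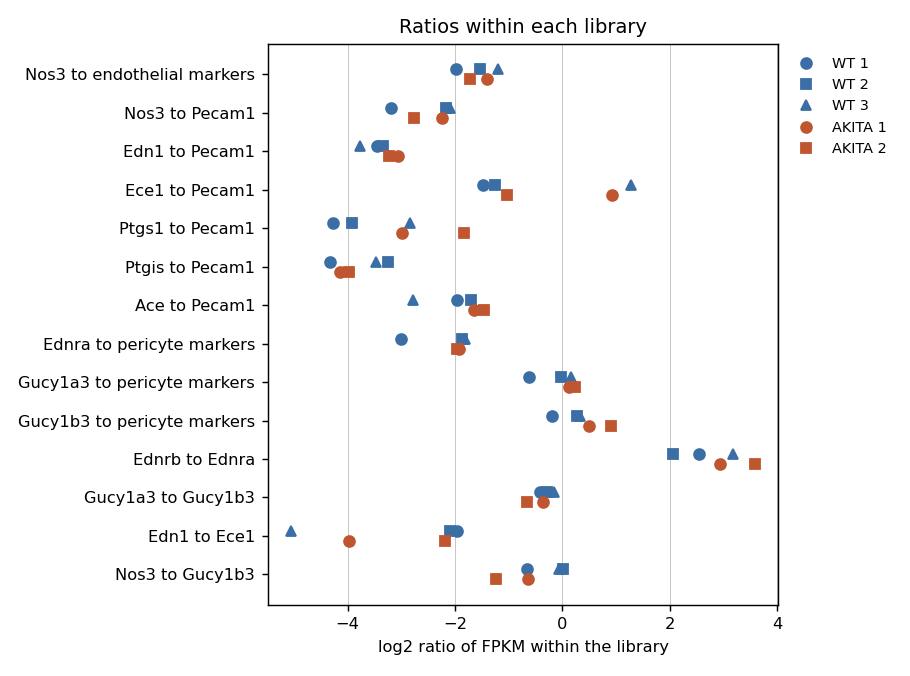
Log2 ratio of FPKM within each library (horizontal axis) for 14 ratios, each gene named first divided by the marker list mean or partner gene named second. Blue symbols are the 3 WT mice and orange symbols the 2 Ins2-AKITA mice, with a symbol for each mouse. The orange symbols lie to the right of all blue ones for *Edn1* and *Ace* relative to *Pecam1* and for *Gucy1b3* relative to pericyte markers, and within or across the blue range for the other 11.

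Genes with the most similar profile over the 5 mice were sought among 11262 other genes with a mean of at least 5 FPKM (11263 for *Ednra*, which is below that level itself). The measure was the root mean square distance between centered log2(FPKM + 1) profiles, where 0 is an identical profile. It describes these 5 libraries, which share their depth and cell makeup. *Ednrb* was closest to *Fam181b* (0.05, with 7.44, 9.87 and 19 FPKM in WT and 16.5 and 19.8 FPKM in Ins2-AKITA mice), *Aqp4* (0.06) and *Aldh1a1* (0.07). The nearest to *Nos3* were *Atp10a* (0.07, with 10.9, 23.6 and 15.8 FPKM in WT and 13.7 and 9.64 FPKM in Ins2-AKITA mice), *Egr1* (0.08) and *Cdc42ep1* (0.08). *Edn1* had in *Tspan33* the closest match of any of the 10 genes (0.02, with 10.4, 10.8 and 5.72 FPKM in WT and 9.05 and 7.55 FPKM in Ins2-AKITA mice), followed by *Dgcr2* and *Gm12346* (both 0.04). WT replicate 3 was the lowest mouse for all 4.

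For the cyclase subunits, *Gucy1a3* was nearest to *Gcc2*, *Sytl2* and *Ttll5* (all 0.04) and *Gucy1b3* to *Pknox2* (0.04), *Tmem44* (0.04) and *Klhl13* (0.05). *Ednra* was nearest to *Afap1l2*, *9430020K01Rik* (both 0.05) and *Akap2* (0.06), and *Ptgis* to *Ptk7* (0.05), *Txlna* (0.07) and *Zdbf2* (0.10). *Ptgs1* was nearest to *Mpp1* (0.08), *Cdk2ap2* (0.09) and *Acbd5* (0.10), each highest in Ins2-AKITA replicate 2. *Ace* was nearest to *Snx30* (0.06), *Spata7* and *Gm17286* (both 0.10), each lowest in WT replicate 3. *Ece1* had no close match, as its nearest genes *Gm10191* (0.47), *Ccng2* and *Ift46* (both 0.48) were far from it beside the distances above, and its own root mean square deviation from its mean was 1.01.

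**Figure D4:**
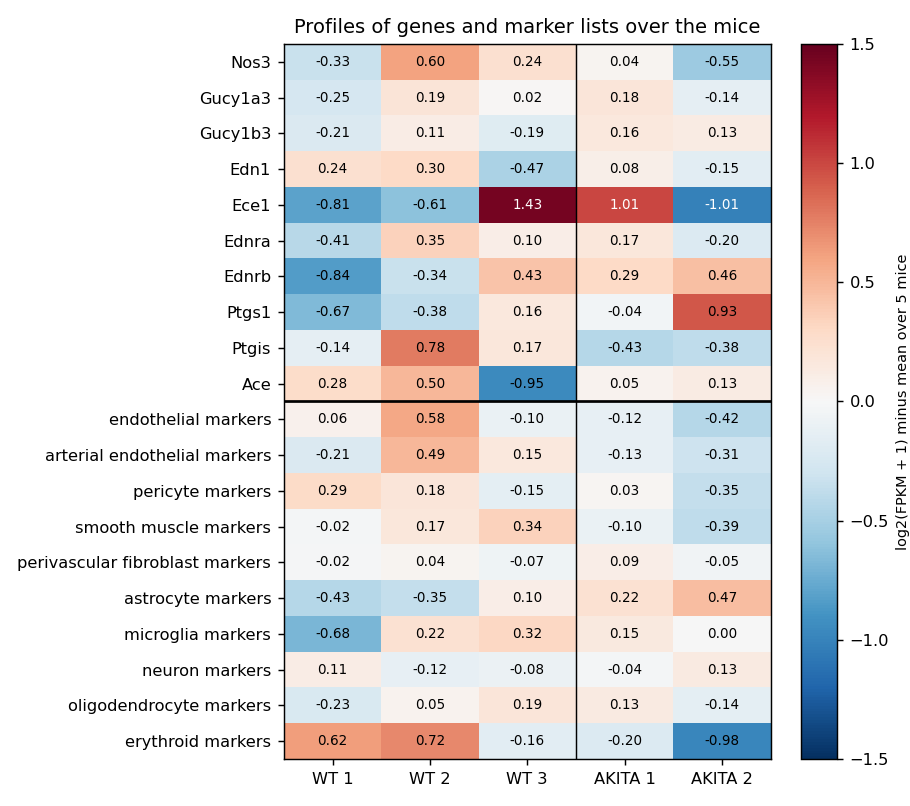
Heat map of log2(FPKM + 1) minus the gene's mean over the 5 mice, for the 10 genes (above the line) and as the mean over each marker list (below it), with mice in columns and the value printed in each cell. *Ece1* runs from 1.43 in WT replicate 3 to -1.01 in Ins2-AKITA replicate 2, while *Gucy1a3* and *Gucy1b3* stay between -0.25 and 0.19, and *Ednrb* and the astrocyte markers are both below 0 in WT replicates 1 and 2 and above 0 in the other mice.

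The wider pathways were followed through 59 further genes, of which 42 were tested. In limma, 0 of 42 passed the adjusted threshold, 4 of 42 had an unadjusted p under 0.05 beside 4.46% of all genes tested, and the smallest adjusted p was 0.896. The estimate was higher for 21 and lower for 21, with a median log2 fold change of -0.01. The Ins2-AKITA values lay above the WT range for 4 of these 42 and below it for 6, beside shares of 9.24% and 10.3% over all genes tested.

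Of 23 genes around nitric oxide and cyclic GMP, 19 were tested, 8 with a higher and 11 with a lower estimate and a median of -0.13. *Mrvi1*, a target of cyclic GMP-dependent kinase that restrains calcium release in smooth muscle, had the lowest estimate of the list, with 8.09, 14.7 and 12.4 FPKM in WT and 6.54 and 4.03 FPKM in Ins2-AKITA mice (-1.01, unadjusted p = 0.0255, adjusted p = 0.896 from limma). Both Ins2-AKITA mice were below all WT mice, as they were for *Nosip*, which encodes a protein that binds nitric oxide synthase, with 55.9, 43.5 and 26.3 FPKM in WT and 25.6 and 17.4 FPKM in Ins2-AKITA mice (-0.89, unadjusted p = 0.0444, adjusted p = 0.896 from limma). *Pts*, an enzyme of the synthesis of tetrahydrobiopterin, the cofactor of nitric oxide synthases, had the highest estimate, with 3.18, 4.67 and 8.25 FPKM in WT and 8.77 and 15.4 FPKM in Ins2-AKITA mice (1.07, unadjusted p = 0.0459, adjusted p = 0.896 from limma). Of the other genes of this cofactor, *Gch1*, which encodes the first enzyme of its synthesis, was at -0.42, *Spr* at 0.08, and *Qdpr*, the dihydropteridine reductase gene and the most abundant of the list with a mean of 232 FPKM, at 0.62.

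The kinases downstream of cyclic GMP, *Prkg1* and *Prkg2*, had estimates of -0.58 and 0.41, and the phosphodiesterases *Pde5a* and *Pde3a* of -0.18 and -0.36. *Ddah1* and *Ddah2*, which remove the synthase inhibitor dimethylarginine, were at 0.525 and 0.34. The arginine transporter gene *Slc7a1* was at 0.12, *Cav1*, the caveolin that holds *Nos3* protein inactive, at -0.19, and the calcium-activated potassium channel gene *Kcnma1* at -0.13. *Nos1* was at -0.07, its adaptor *Nos1ap* at -0.41, *Nostrin* at 0.01 and *Gucy1a2* at -0.225. Adjusted p from limma was at least 0.896 for each of these genes. *Arg1* was listed at 0 in every mouse.

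The 5 further endothelin genes gave 4 tests, with *Edn3* at 0.06, *Ece2* at -0.14 and *Mme*, the neprilysin gene, at -0.26 on the log2 scale. Of 20 prostanoid genes, 14 were tested, 7 with a higher and 7 with a lower estimate and a median of 0.001. *Abcc4*, a transporter that exports prostaglandins and cyclic nucleotides, had 14.8, 18.8 and 14.4 FPKM in WT and 10.6 and 9.04 FPKM in Ins2-AKITA mice (-0.64, unadjusted p = 0.0336, adjusted p = 0.896 from limma), and both Ins2-AKITA mice were below all WT mice. The extremes of the list were *Ptgs2* at -0.69 and *Hpgds*, a prostaglandin D synthase, at 0.80 (adjusted p = 0.897 and 0.901 from limma). *Ptgds*, the abundant prostaglandin D synthase of brain and meninges, had a mean of 292 FPKM and was at -0.42. *Ptges2* and *Ptges3* of prostaglandin E synthesis were at 0.06 and 0.25, the receptor gene *Ptger1* at 0.03, *Alox5ap* of leukotriene synthesis at -0.05 and *Hpgd*, which inactivates prostaglandins, at 0.14. The prostacyclin receptor gene *Ptgir* was at most 0.685 FPKM in any mouse.

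Of 11 angiotensin and kinin genes, 5 were tested, all with an estimate above 0 and a median of 0.07. They ran from *Mas1* at 0.02 to *Agtrap*, which encodes a protein that binds the angiotensin receptor, at 0.42 (adjusted p = 0.896 from limma). *Agtrap* was at 5.45, 7.43 and 7.17 FPKM in WT and at 8.70 and 9.69 FPKM in Ins2-AKITA mice, with both Ins2-AKITA mice above all WT mice. The angiotensinogen gene *Agt*, active in astrocytes, was at 0.075 with 42.7 to 74.1 FPKM in WT and 53.8 and 71.5 FPKM in Ins2-AKITA mice, and *Enpep* at 0.07. The renin gene *Ren1* was listed at 0 in every mouse, and the angiotensin receptor gene *Agtr1a* was at most 1.18 FPKM.

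**Figure D5:**
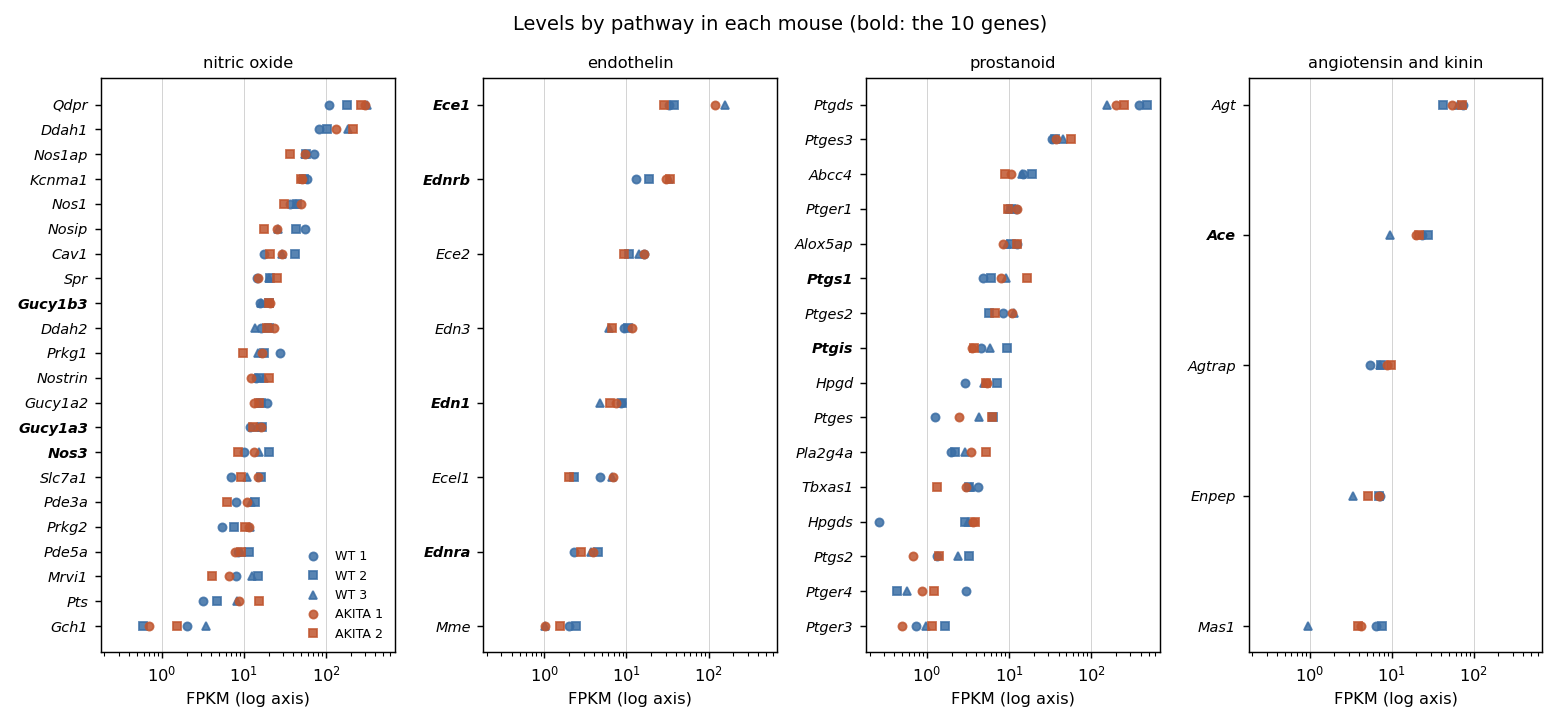
FPKM on a log axis of the genes of each pathway that were tested, 1 of them not shown, in order of mean level, with the 10 studied genes in bold, blue symbols for the 3 WT mice and orange for the 2 Ins2-AKITA mice. Blue and orange mix for most genes; the 160 and 119 FPKM points of *Ece1* stand apart from its other 3, and *Qdpr* and *Ptgds* head their pathways.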

How the data were processed

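RNA of PECAM1-captured brain microvessels (3 WT and 2 Ins2-AKITA mice) was depleted of ribosomal RNA and sequenced from stranded libraries, 1 per mouse. The authors deposited FPKM per Ensembl gene identifier and mouse. The submitters' processing notes name TopHat2 2.0.4, Picard 1.92, Cufflinks 2.2.1 and NCBIM37, and duplicated reads were removed. The program behind the values of single mice and the annotation release are not given in the sources used here. Removal of duplicates can lower abundant short genes, and division by length inflates genes shorter than a fragment.

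The GENCODE vM1 annotation held 37197 of 37982 identifiers, and 785 kept their identifier. FPKM of rows with a shared symbol were summed, which gave 34615 symbols. The 16286 symbols with a mean of at least 1 FPKM were tested on log2(FPKM + 1), a scale that understates changes of low genes, with limma 3.58.1 in R 4.3.3 (eBayes with a trend, genotype as the only factor, two-sided, Benjamini-Hochberg adjustment, threshold 0.05). Python 3.11.15 was used for the rest, including exact two-sided permutation tests over all 10 splits. Ratios were taken without a pseudocount. The limma fit was tested on simulated data, with changes larger than those estimated for the 10 genes.

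Depth was estimated from the low values of single-transcript genes. In each mouse, 97.7% to 98.1% of these were whole multiples, within 0.05, of what 1 fragment is worth. Intervals from these counts cover counting error only.

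The 10 genes, the pathway and marker lists and the tests were chosen with earlier results of these data known. Named were all 10 genes, pathway genes with a mean of at least 5 FPKM, the extremes of each list, paralogs, up to 3 markers per list in listed order and the 3 nearest profiles per gene. *Arg1*, *Gch1*, *Ren1*, *Ptgir*, *Agtr1a* and the overlapping genes were named after their values had been seen. Alternatives tried were another pseudocount (0.1), leaving out the filter or setting it at 5 FPKM, scaling by TPM, by median ratios or by quantiles, a constant prior, the replicate number as a block, the highest row per symbol, marker medians, and each mouse left out. A fit without WT replicate 3 and Ins2-AKITA replicate 1, the mice high in *Ece1*, and 3 ratios were chosen after seeing the data. The comparison of genes with and without a short transcript was not among the planned tests. Replicate numbers are shared between the genotypes, but nothing names pairs, and with 2 Ins2-AKITA mice, whose deviations from their mean are exact opposites, the data cannot show a pairing. Quantitative PCR, imaging and tracer measurements were not analysed here, and 1 pathway gene is counted but not reported here by name.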

Additional observations from a re-analysis of the deposited data

How the results depend on the processing

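Under each of the 15 alternatives, 0 of the 10 genes and 0 of the pathway genes passed the adjusted threshold of limma. With 3 mice against 2, intervals are wide, depth limits *Ednra*, *Ptgis* and *Edn1* most, and each gene whose sign turned had an interval that held 0. The cause of the changes was not tested. For TPM each mouse was rescaled to the same sum before the 1 was added, so the shift of a gene also depends on its level. The median of all genes moved to 1.07 with this scaling. Under TPM, 58 genes were higher and 30 lower, the median log2 fold change was 1.38 for the 10 genes, 1.25 for the nitric oxide, 0.835 for the endothelin, 0.95 for the prostanoid and 1.03 for the angiotensin list, and *Nos3* (0.865), *Edn1* (1.02), *Ece1* (1.485), *Ednra* (0.67) and *Ptgis* (0.45) turned positive. The number of genes lower was 2 with no filter, with the filter at 5 FPKM (where *Ednra* was not tested) and with a constant prior, which called 1 gene higher. *Ece1* became 0.02 with median-ratio scaling, and *Edn1*, *Ece1* and *Ednra* became 0.02, 0.026 and 0.11 with quantile normalization. With the replicate number as a block, WT replicate 3 does not add to the difference, and 0 genes were higher and 5 lower. *Ece1* became 0.71, *Ednra* 0.02, *Ace* -0.30 and the ratio of *Nos3* to *Pecam1* 0.186. In this block fit *Ednrb* was at 0.96 (unadjusted p = 0.0186, adjusted p = 0.603 from limma). *Ptgs1* was at 0.97 in it (unadjusted p = 0.0523, adjusted p = 0.603 from limma). The correlations of same-numbered mice were 0.0512 and -0.0343. With 1 mouse left out, the number of genes higher ran from 0 to 10 (10 without Ins2-AKITA replicate 2) and the number lower from 2 to 10 (10 without WT replicate 3), and the remaining lone Ins2-AKITA mouse was assumed to vary like the WT mice. The medians ran from -0.41 to 0.32 for the endothelin and from -0.15 to 0.073 for the prostanoid list, and the log2 fold changes from -0.13 to 0.19 for *Gucy1a3*, -0.30 to 0.083 for *Edn1*, -1.02 to 1.00 for *Ece1*, -0.235 to 0.16 for *Ednra* and -0.30 to 0.42 for *Ace*. The ratios ran from -0.19 to 0.20 for *Nos3* to the endothelial markers, -0.37 to 0.25 for *Nos3* to *Pecam1*, -0.54 to 1.40 for *Ece1* to *Pecam1*, -0.10 to 0.50 for *Ednra* to the pericyte markers, -1.06 to 0.84 for *Edn1* to *Ece1*, -0.13 to 0.26 for *Ednrb* to the astrocyte markers and -0.515 to 0.043 for *Ptgis* to the smooth muscle markers. The ratio differences that kept their sign also depended on single mice. The smallest was 0.068 for *Ptgs1* to the microglia markers, 0.685 for *Ptgs1* to *Pecam1*, 0.36 for *Gucy1b3* to the pericyte markers, 0.35 for *Ednrb* to *Ednra*, -0.07 for *Gucy1a3* to *Gucy1b3* and -0.40 for *Nos3* to *Gucy1b3* (all without Ins2-AKITA replicate 2), 0.11 for *Gucy1a3* to the pericyte markers (without WT replicate 1), -0.15 for *Ptgis* to *Pecam1* (without WT replicate 2), and 0.28 for *Ace* and 0.25 for *Edn1* to *Pecam1* (both without WT replicate 3). Without WT replicate 3 and Ins2-AKITA replicate 1, chosen after seeing the data, 2 genes were higher and 7 lower, the endothelin median was -0.49, *Gucy1a3* -0.11 and *Ace* -0.26. The sign of *Gucy1b3*, *Ednrb* and *Ptgs1* was kept in all 15 alternatives.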
